A study of Nicotiana tabacum and Solanum tuberosum subsp. andigenum and Nicotiana sylvestris with 28 samples.

Results

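SHKA, the gene of a 3-deoxy-D-arabino-heptulosonate 7-phosphate (DAHP) synthase, and PPO, the gene of a polyphenol oxidase, were followed across the Solanaceae plants of a photoperiod study. They were taken as the spots whose only gene symbol in the array's annotation was SHKA or PPO. This gave 2 of 430 gene symbols and 6 of 32448 spots, which form 3 clones with 2 spots each: SHKA (spots 147641 and 148485), PPO clone 137880 (spots 137880 and 138724) and PPO clone 150205 (spots 150205 and 151049). The members were chosen by their measured photoperiod ratios, high in MM tobacco and, for SHKA, close to 0 in potato, so the MM and potato ratios, and their differences, are given as a description without a test. A further clone lists SHKA among several symbols and was left out.

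DAHP synthase joins phosphoenolpyruvate and erythrose 4-phosphate and so opens the shikimate pathway, the chloroplast route to phenylalanine, tyrosine and tryptophan. Phenylalanine feeds the phenylpropanoids, among them chlorogenic acid, flavonoids and lignin, which are abundant in leaves of potato and tobacco. Polyphenol oxidases are thylakoid lumen enzymes that oxidize o-diphenols, chlorogenic acid included, to quinones once cells are broken. In Solanaceae they belong to a multigene family known for wound responses, browning and defence against herbivores. Both enzymes therefore handle phenolic metabolism, SHKA at its entry and PPO at the oxidation of its products.

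RNA of leaves was compared on potato cDNA arrays with 2 colours, 3 biological replicates a group, with 28 arrays in all because 1 potato replicate was repeated with exchanged dyes. Plants were 56 days old. Long days (LD) had 16 h of light at 80 and short days (SD) 8 h of light at 160 µmol per square metre and second, at 22 °C. Harvest was 14 h after the photoperiod began, so LD plants were sampled in the light and SD plants in the dark, and day length cannot be told apart from light at harvest. The groups were MM, a tobacco line isogenic with Hicks that flowers only in SD, moved from LD to SD for 15 days or 1 day and set against MM kept in LD; Hicks, a day-neutral N. tabacum cultivar, handled the same way; N. sylvestris, which flowers only in LD, moved from SD to LD for 15 days or 1 day and set against plants kept in SD; and potato of the subspecies Andígena, which tuberizes only in SD, moved from LD to SD for 15 days or 1 day and set against plants kept in LD. A final group was α-PHYB potato, 1 antisense line with reduced phytochrome B, grown in LD and set against the wild type (WT) in LD. Potato samples were leaves and petioles according to the study's methods and leaves according to the labels.

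Each value is the log2 ratio of LD over SD, or of WT over α-PHYB, averaged over both spots of a clone. A positive ratio thus means lower RNA in SD-transferred MM, Hicks or potato than in their LD controls, higher RNA in LD-transferred N. sylvestris than in its SD controls, and lower RNA in α-PHYB than in WT. The direction was not stated with the deposited values; it was taken from the channel descriptions and from F3H, GBSS and STUGE51, which then have the signs known from the study. Ratios carry no level, so neither the leaf identity of the samples nor the order of abundance between genes could be checked. Tobacco RNA was hybridised to potato cDNA, and signals from several members of the polyphenol oxidase family may be pooled in a PPO clone.

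Arrays of MM and N. sylvestris fell into sets before any gene was considered. Hicks arrays also agreed less well with one another (r = 0.02 to 0.59 over clones) than potato arrays (0.6 to 0.85). Both MM arrays of replicate 2 correlated with each other (r = 0.715 over clones) but had r between -0.149 and 0.287 with the other MM arrays, which had r between 0.587 and 0.818 among themselves. Replicate 1 of N. sylvestris correlated at 0.82 between its 15-day and 1-day arrays, whereas its 15-day array had r = -0.42 and -0.31 with replicates 2 and 3 at 1 day, and its 1-day array r = -0.31 and -0.20. Yet both arrays of replicate 1 correlated positively with the 15-day arrays of replicates 2 and 3 (r = 0.33 to 0.60), which had r between 0.09 and 0.30 with the 1-day arrays of those replicates, and these last had r = 0.80 with each other. Since the channel descriptions give all N. sylvestris arrays the same dyes, their direction was kept, but it is not settled by the data: the sample titles name the opposite transfer, GBSS averaged 1.63 over 5 N. sylvestris arrays and F3H gave a single value of 1.69, in replicate 1, while the STUGE51 clones differed in sign (0.40 over 2 arrays and -0.42 over 5). Reading the titles instead would turn the sign of every N. sylvestris ratio below, giving means of -0.84 (15 days) and -0.41 (1 day) for SHKA, 0.08 and 1.25 for PPO clone 137880, and -0.28 and 1.43 for clone 150205. Between 9031 and 9887 clones had a value on the potato arrays, 5169 to 7333 on MM, 5250 to 7157 on Hicks and 3602 to 4873 on N. sylvestris arrays.

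SHKA was high in LD relative to SD in every MM replicate. The log2 ratios were 1.31, 1.78 and 1.88 after 15 days and 1.46, 0.78 and 2.46 after 1 day. They averaged 1.66 ± 0.30 (SD, n = 3), a 3.15-fold ratio, at 15 days and 1.56 ± 0.84 (SD, n = 3), a 2.96-fold ratio, at 1 day. All 6 MM values were above 0, and each lay at or above the 91.2 percentile of the clones on its array. In whole leaves, fewer cells that express a gene and less RNA per cell cannot be told apart. The lowest value, 0.78, came from replicate 2, the one that stood apart. Without that replicate the means were 1.60 at 15 days and 1.96 at 1 day.

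In Hicks, which shares the MM background but not its photoperiodic flowering, SHKA ratios were 0.79, 0.71 and 1.78 after 15 days and 0.45, 0.36 and 1.85 after 1 day. All 6 were again above 0, and on both days replicate 3 stood well above the other 2. The means were 1.09 ± 0.59 (SD, n = 3) at 15 days and 0.88 ± 0.83 (SD, n = 3) at 1 day. A mean was said to pass when limma's p was at most 0.05 and its Benjamini-Hochberg adjusted p at most 0.1. On 1 day SHKA passed (SE 0.27, adjusted p = 0.0648), one of the 13.2% of 4706 tested clones that passed with a positive ratio. At 15 days it did not (SE 0.25, adjusted p = 0.164), where 0.27% of 4440 clones passed in either direction and 668 had an unadjusted p under 0.05. The titles of both days end in the same replicate numbers after the LD control. Same-numbered arrays may share that control, so the 6 Hicks ratios may not be independent. Pooled over both days as if independent, SHKA averaged 0.99, a 1.98-fold ratio (SE 0.21). It passed (adjusted p = 0.0231, 6 ratios), beside 4.98% of 3914 clones passing with a positive ratio. Replicate 3 carried much of this: without it the 1-day mean was 0.40 (adjusted p = 0.249) and the pooled mean 0.58 (adjusted p = 0.109), and neither passed. At 15 days SHKA passed once replicate 1 (1.25, adjusted p = 0.058) or replicate 3 (0.75, adjusted p = 0.0967) was left out, but not without replicate 2 (1.28, adjusted p = 0.225). More clones passed then over the whole array: 87 of 4830 without replicate 1 and 261 of 4760 without replicate 3, against 12 of 4440. Without replicate 3 the SHKA mean itself fell, and its unadjusted limma p went from 0.00386 to 0.00502.

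**Figure D1:**
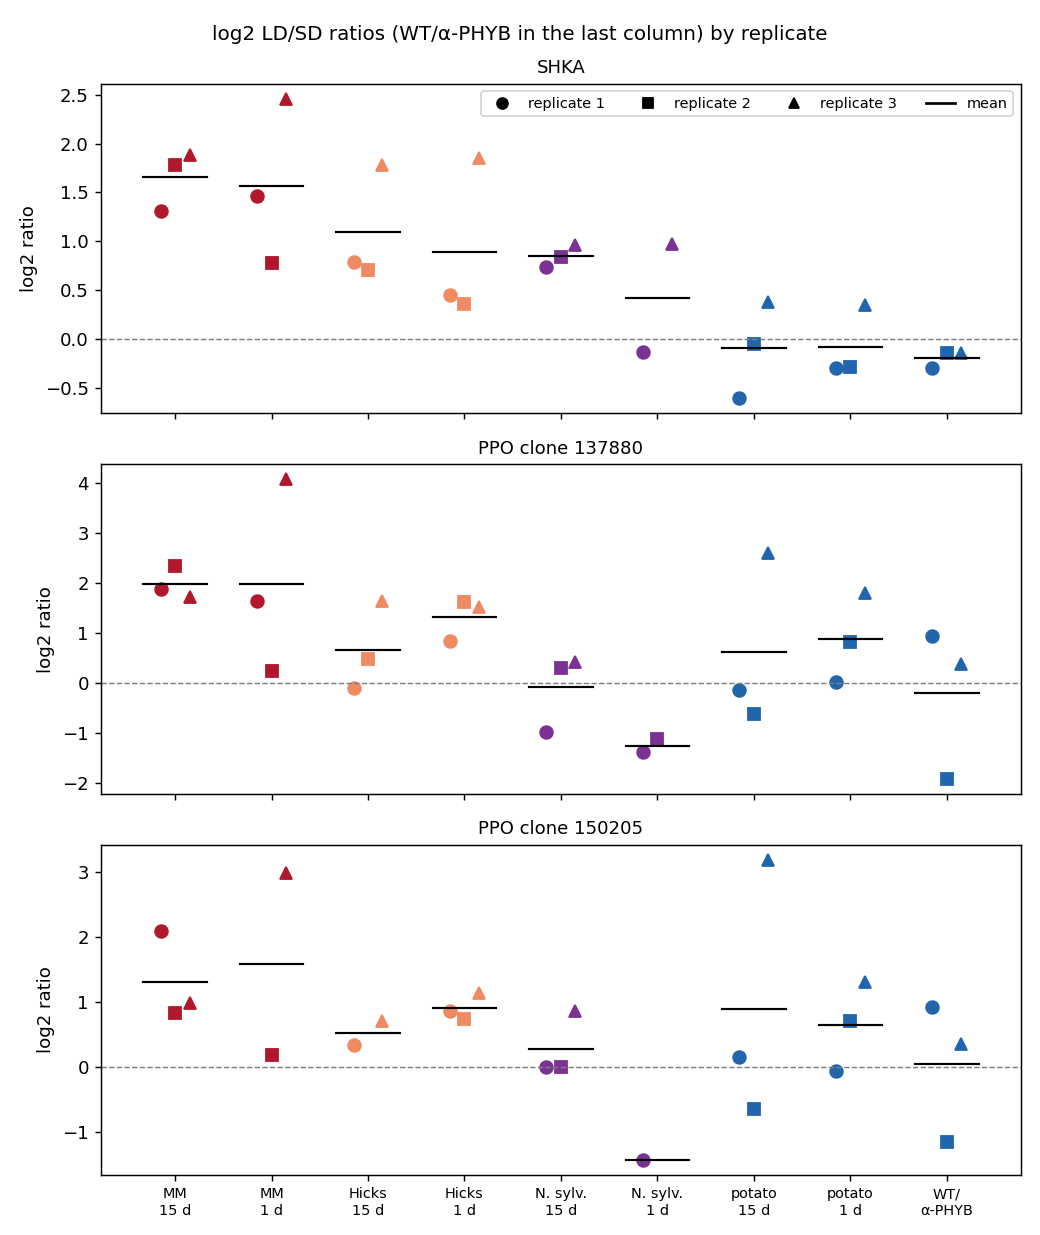
Log2 ratios (vertical axis, log2 units) of SHKA and of both PPO clones in each replicate; symbols mark the replicate number, colours the plant and black bars the group mean. SHKA lies above 0 in all 12 MM and Hicks values and between -0.61 and 0.38 in potato, whereas the PPO clones spread widely among the replicates of potato, MM and WT/α-PHYB.

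N. sylvestris gave SHKA ratios of 0.74, 0.84 and 0.96 after 15 days in LD, the tightest of the photoperiod groups. The mean was 0.84 ± 0.11 (SD, n = 3), a 1.79-fold higher RNA in LD-transferred than in SD plants, and missed the threshold narrowly (SE 0.21, adjusted p = 0.102; 3.47% of 3028 clones passed with a positive ratio). After 1 day the ratios were -0.14 and 0.97, with no value in replicate 2. These 2 values disagreed in sign, and the mean of 0.41 did not pass when 2 values were accepted (adjusted p = 0.774). The negative value belongs to replicate 1, and the 3 SHKA values of replicates 2 and 3 over both days lay between 0.84 and 0.97. Their closeness is limited by the spots: the 0.84 came from 1 spot, and the 0.97 at 1 day averaged spots of 0.38 and 1.55.

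In potato the SHKA ratios lay on both sides of 0. After 15 days in SD the ratios were -0.61, -0.05 and 0.38, and after 1 day -0.30, -0.29 and 0.35. Their means were -0.09 ± 0.50 and -0.08 ± 0.37 (SD, n = 3 each), with replicate 3 alone above 0 on both days. The antisense line gave WT/α-PHYB ratios of -0.30, -0.15 and -0.15, which are all small and of one sign. Their mean of -0.20 (SE 0.11, 95% interval -0.47 to 0.07) did not pass (adjusted p = 0.287), beside 14% of 8463 clones that passed in either direction.

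Ordered by their means, SHKA ratios ran from MM at 15 days (1.66) and 1 day (1.56) through Hicks (1.09 and 0.88) and N. sylvestris (0.84 and 0.41) to potato (-0.09 and -0.08); with the direction of the titles, N. sylvestris (-0.84 and -0.41) would come last. Neighbours in this order overlapped: the Hicks values at 15 days (0.71 to 1.78) reached into the MM values (1.31 to 1.88), and the N. sylvestris values at 15 days lay within the Hicks range. MM and potato did not overlap on either day. MM exceeded potato by 1.75 (SE 0.30) at 15 days and by 1.64 (SE 0.42) at 1 day, but this contrast chose the gene; replicates also lay wholly above those of potato for 12.3% of 4542 clones at 15 days and for 8.4% of 4856 clones at 1 day. MM exceeded Hicks by 0.56 (SE 0.34) at 15 days and 0.68 (SE 0.50) at 1 day, with overlapping replicates.

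PPO clone 137880 also had its highest ratios in MM. Values were 1.88, 2.34 and 1.73 after 15 days and 1.65, 0.24 and 4.08 after 1 day. The means were alike, 1.98 and 1.99, but the SD was 0.32 at 15 days and 1.94 at 1 day (n = 3 each). One MM sample at 1 day thus showed a 16.9-fold ratio and another a 1.18-fold ratio, the low one from replicate 2. Without that replicate the 1-day mean was 2.86, and without replicate 3, the highest, it was 0.94.

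PPO clone 150205 followed with lower values, 2.09, 0.82 and 0.98 in MM after 15 days and 0.18 and 2.98 after 1 day, where replicate 1 had no value. The means were 1.29 ± 0.69 (SD, n = 3) and 1.58 ± 1.99 (SD, n = 2). Every MM value of both clones was above 0, and replicate 3 was the high one at 1 day in both.

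In Hicks after 1 day of SD all PPO ratios were positive. Clone 137880 gave 0.84, 1.62 and 1.52, a mean of 1.33 ± 0.42 (SD, n = 3) or 2.51-fold, and passed (SE 0.18, adjusted p = 0.00371). Clone 150205 gave 0.86, 0.74 and 1.13, a mean of 0.91 ± 0.20 (SD, n = 3) or 1.88-fold, and passed too (SE 0.14, adjusted p = 0.00663). With SHKA, all 3 clones fell in SD-transferred Hicks on this day, against the background of 13.2% given above. Each PPO clone passed without any single replicate (adjusted p at or below 0.0264). None of the 3 passed by the methods' own test (q = 0.221 for SHKA, 0.121 and 0.109 for the PPO clones), and the PPO clones did not pass with a spread shared over all groups (adjusted p = 0.174 and 0.333).

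After 15 days the Hicks values were more scattered. Clone 137880 gave -0.10, 0.48 and 1.64, and the mean of 0.67 ± 0.88 (SD, n = 3) did not pass (95% interval -0.11 to 1.46, adjusted p = 0.392). Clone 150205 gave 0.33 and 0.70, with no value in replicate 2, and did not pass with 2 values accepted (mean 0.51, adjusted p = 0.405). Replicate 3 was the highest for both clones and for SHKA. Pooled over days, clone 137880 averaged 1.00 (SE 0.23, adjusted p = 0.0281) and passed, although not without replicate 3 (0.71, adjusted p = 0.22). With at least 2 values a day accepted, clone 150205 averaged 0.75 over both days (SE 0.14, adjusted p = 0.0191) and passed, as did 3.99% of 5084 clones with a positive ratio. As for SHKA, ratios pooled over days may share their LD controls and were treated as independent.

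N. sylvestris PPO ratios included values below -1, which would be above 1 with the direction of the titles. Clone 137880 gave -0.97, 0.30 and 0.42 after 15 days in LD, and -1.38 and -1.12 after 1 day, with replicate 3 lacking a value. Clone 150205 gave -0.01, -0.01 and 0.86 after 15 days and a single value, -1.43, after 1 day. At 15 days the signs were mixed and neither mean passed (-0.08, 95% interval -0.80 to 0.63, adjusted p = 0.882, and 0.28, interval -0.32 to 0.88, adjusted p = 0.507). At 1 day the 3 values at hand were all below -1, but the mean of clone 137880, -1.25 ± 0.18 (SD, n = 2), did not pass with 2 values accepted (adjusted p = 0.726). Of these 3 values 2 come from replicate 1, and the third, -1.12, from replicate 2. In replicates 2 and 3 over both days, clone 137880 ranged from -1.12 to 0.42 and clone 150205 from -0.01 to 0.86.

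Potato PPO ratios depended on the replicate. Clone 137880 gave -0.14, -0.62 and 2.61 after 15 days of SD and 0.03, 0.83 and 1.80 after 1 day. Clone 150205 gave 0.15, -0.65 and 3.18 after 15 days and -0.07, 0.70 and 1.30 after 1 day. Replicate 3 was the highest for both clones on both days, with ratios of 6.12-fold and 9.09-fold at 15 days, while replicates 1 and 2 lay within 0.65 of 0 at that time. The 15-day means of 0.62 ± 1.75 and 0.89 ± 2.02 (SD, n = 3 each) became -0.38 and -0.25 without replicate 3.

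**Figure D2:**
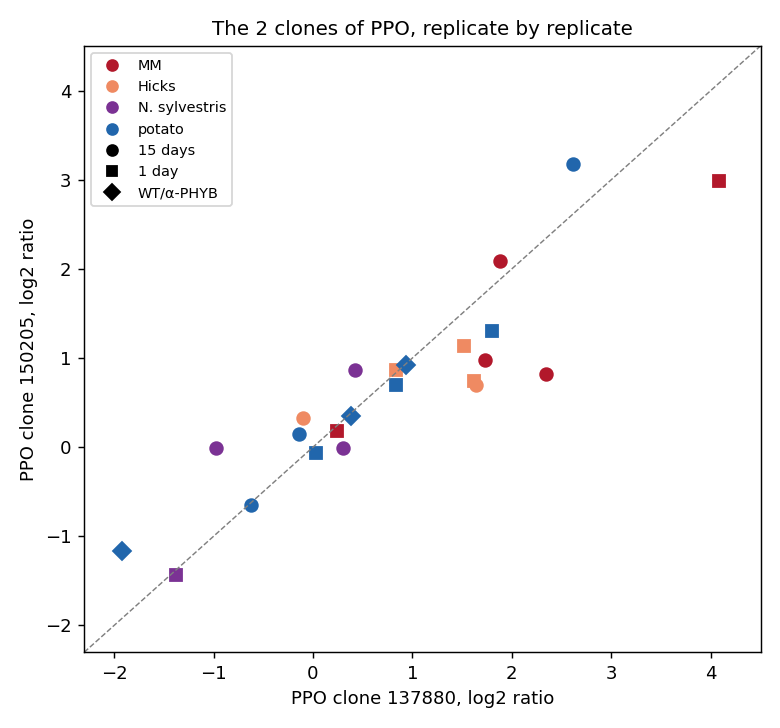
Log2 ratios of PPO clone 150205 (vertical axis) against those of PPO clone 137880 (horizontal axis), 1 point for each of the 23 replicates with both values; colour marks the plant, shape the transfer time or WT/α-PHYB, and the dashed line equality. The clones had the same sign in 19 of the 23 replicates, and the high MM and potato and the low WT/α-PHYB points are extreme in both.

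The extreme replicates were seen by both PPO clones, which are separate spots on the array. The clones had the same sign in 19 of 23 replicates and differed by a median of 0.394. This may be set beside the median difference between the 2 spots of a clone, which was 0.357 for PPO clone 137880, 0.234 for PPO clone 150205, 0.126 for SHKA and 0.132 over all clones. The PPO spots therefore agreed less well than those of SHKA or of a usual clone. Both clones carry the same gene symbol and are no independent genes.

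In the phytochrome B comparison the WT/α-PHYB ratios of clone 137880 were 0.94, -1.92 and 0.38, and those of clone 150205 were 0.92, -1.16 and 0.35. Replicate 2 was thus strongly negative, at the 0.11 and 0.925 percentile of its array, and the other 2 replicates positive in both clones. Neither mean passed. For clone 137880 it was -0.20 (95% interval -1.58 to 1.18, adjusted p = 0.838), and for clone 150205 it was 0.04 (interval -0.95 to 1.03, adjusted p = 0.958). These intervals hold changes of more than 2-fold either way for clone 137880, so the arrays leave the PPO response to the antisense line undetermined, in contrast to the narrow interval of SHKA.

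**Figure D3:**
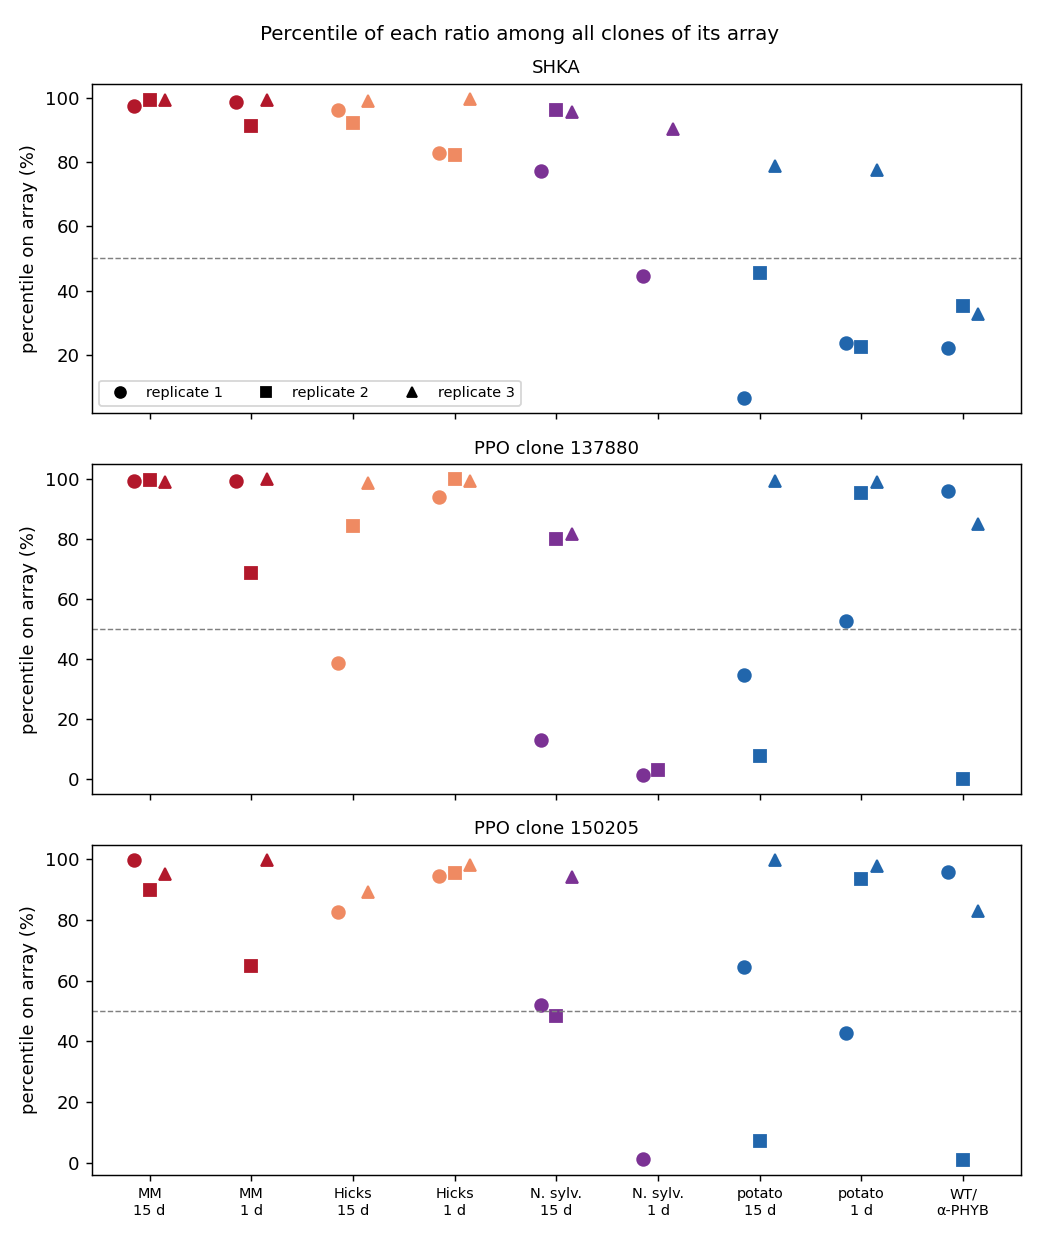
Percentile (vertical axis, %) of each ratio among all clones measured on the same array, by group and replicate; the dashed line is the array's median. SHKA reaches at least the 91.2 percentile on all 6 MM arrays, and the PPO clones lie at both ends of the scale in potato and WT/α-PHYB.

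The time in the new photoperiod made no difference that passed in MM, Hicks and potato. Without the replicate number as a block, 15 days minus 1 day in SHKA was 0.09 in MM (95% interval -0.92 to 1.11), 0.21 in Hicks (-0.76 to 1.18) and -0.01 in potato (-0.64 to 0.62). For PPO clone 137880 it was -0.01 in MM (-1.99 to 1.98), -0.65 in Hicks (-1.59 to 0.28) and -0.27 in potato (-2.03 to 1.49), and for clone 150205 in potato it was 0.25 (-1.67 to 2.17). The adjusted p was 0.411 for clone 137880 in Hicks and higher for the others; 0.202% of 8426 clones passed in potato, and by limma none of 4355 in MM and of 3914 in Hicks, where 18 and 749 clones had an unadjusted p under 0.05 and the methods' own test with q-values passed 0 and 4. The intervals of PPO, and those of SHKA in MM and Hicks, are wide enough to include 2-fold changes between days. In N. sylvestris no member had all values; with 2 accepted, the difference was 0.43 for SHKA (adjusted p = 0.682) and 1.17 for clone 137880 (adjusted p = 0.589). With the replicate number as a block, since same-numbered N. sylvestris arrays deviated together, and chosen after seeing the data, the difference was 0.92 in clone 137880 (SE 0.28, adjusted p = 0.0186) and passed, beside 19.4% of 3410 clones passing with a positive difference, while SHKA at 0.44 did not (adjusted p = 0.236). For each gene, 2 of the 3 pairs had a value on both days.

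N. sylvestris and Hicks were compared directly, since they respond to the same 2 light regimes with different flowering habits. At 15 days the N. sylvestris ratio minus the Hicks ratio was -0.25 for SHKA (95% interval -1.0 to 0.50, adjusted p = 0.751) and -0.76 for PPO clone 137880 (interval -1.86 to 0.34, adjusted p = 0.525). Neither passed, nor did any of the 2864 clones by limma or by the methods' own test, of which 366 had an unadjusted p under 0.05. At 1 day, with 2 values accepted, PPO clone 137880 was at -1.25 in N. sylvestris and at 1.33 in Hicks. As the transfers ran opposite ways, in the direction taken here both ratios stand for lower RNA in the transferred plants than in their controls. The difference of -2.58 (SE 0.33) passed (adjusted p = 0.0209), beside 5.12% of 3205 clones that passed with a lower ratio in N. sylvestris and 19.7% whose N. sylvestris values all lay under the Hicks values. SHKA differed by -0.47 (adjusted p = 0.695) in the same comparison. The 2 N. sylvestris values of clone 137880 came from replicates 1 and 2, the latter from 1 spot. With all values required, which leaves this clone out, 193 of 2501 clones passed at 1 day in either direction. Once any 1 Hicks replicate was left out, 0 passed.

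The difference in PPO leaned on the reading of the N. sylvestris arrays. With the transfer direction of the titles it was -0.08 (adjusted p = 0.932), while SHKA would then differ by -1.94 at 15 days (adjusted p = 0.0199 with all values required) and by -1.29 at 1 day (adjusted p = 0.435). The dyes also run opposite in N. sylvestris and Hicks. In the potato replicate hybridised both ways, PPO clone 137880 read 0.35 with the LD sample in Cy3 and -0.63 with it in Cy5, clone 150205 read 0.40 and -0.10, and SHKA read -0.61 both times. This makes a dye term of 0.49, 0.25 and 0.00, where the SD of that term over 8388 clones was 0.182. With the term subtracted, the difference between N. sylvestris and Hicks in PPO clone 137880 at 1 day was -1.60 and no longer passed (adjusted p = 0.239), whereas the Hicks means at 1 day were 0.84 and 0.66 for the PPO clones and still passed (adjusted p = 0.0362 and 0.037).

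**Figure D4:**
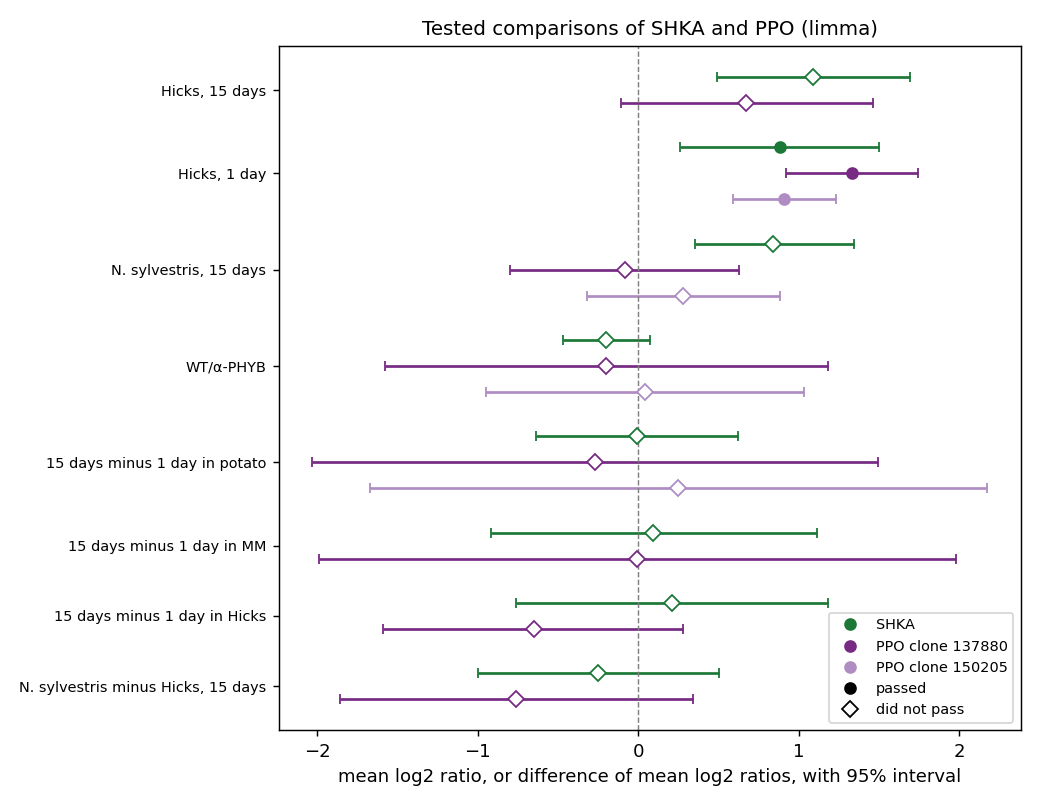
Tested mean log2 ratios and differences of mean ratios (horizontal axis, log2 units) with 95% intervals from limma; filled circles passed and open diamonds did not. The 3 passing values are those of Hicks after 1 day (0.88, 1.33 and 0.91); N. sylvestris ratios are LD over SD.

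The MM ratio minus the potato ratio was 1.36 (SE 0.71) for PPO clone 137880 and 0.40 (SE 0.84) for clone 150205 at 15 days, and 1.10 (SE 0.90) for clone 137880 at 1 day, with overlapping replicates each time. Leaving out 1 replicate gave 0.74 to 2.36, -0.37 to 1.55 and 0.05 to 1.97. Set against Hicks, MM was higher in clone 137880 by 1.30 (SE 0.41) at 15 days. Here the MM replicates (1.73 to 2.34) lay wholly above those of Hicks (-0.10 to 1.64), as for 3.83% of 3811 clones. At 1 day the difference was 0.66 (SE 0.79; -0.39 to 1.53 without 1 replicate) and the replicates overlapped.

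Replicate 3 gave the highest SHKA ratio in 7 of the 8 groups with 3 values, WT/α-PHYB being the exception. Among 2606 clones complete in these groups, 6 (0.23%) had replicate 3 on top at least as often. The replicate and the count were set by the SHKA values themselves, so this share is a description and no test. SHKA and PPO clone 137880 shared their highest replicate in 5 of 8 groups and their lowest in 3, and both PPO clones shared the highest in 4 of 6. How often other clones share replicates in this way was not tested. The part of replicate 3 in the group means, beyond the values without it given above, was not tested. Over the 9 group means the Pearson correlation was 0.604 between SHKA and PPO clone 137880, 0.465 between SHKA and clone 150205, and 0.949 between both PPO clones.

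Of 46 other symbols listed for the shikimate, aromatic amino acid, phenylpropanoid, flavonoid and phenol oxidation steps, only F3H (flavanone 3-hydroxylase, which makes dihydroflavonols) and FLS (flavonol synthase, which turns these into flavonols) were found as single symbols, with 1 and 4 clones. F3H helped to set the direction of the ratios, so its sign is no separate finding. In that direction F3H lay above 0 in potato as well: its mean ratio was 1.54 at 15 days (adjusted p = 0.0102) and 1.33 at 1 day (adjusted p = 0.00902), beside means of 1.47 and 1.75 in MM (2 arrays each), 1 value of 1.81 in Hicks at 15 days and a Hicks mean of 1.27 at 1 day. In Hicks at 1 day it passed together with the 3 clones above (SE 0.20, adjusted p = 0.00651), being 1 of the 3 flavonoid clones tested, whose median was 0.38 against -0.01 over all clones.

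FLS clones 137682 and 142699 had potato ratios of 0.32 and 0.44 at 15 days (adjusted p = 0.0959 and 0.0422) and 0.59 and 0.54 at 1 day (adjusted p = 0.0119 and 0.0172), and passed on both days. These FLS clones, and F3H in the direction it helped to set, were thus lower in SD-transferred potato. Of all clones, 18.2% of 8781 passed with a positive ratio at 15 days and 17.4% of 8854 at 1 day. The other 2 FLS clones did not pass (0.07 and -0.41 at 15 days, adjusted p = 0.698 and 0.361). In Hicks neither FLS clone tested passed at 1 day (0.10 and 0.38, adjusted p = 0.759 and 0.105). No flavonoid clone passed in WT/α-PHYB, where F3H averaged 0.00 (adjusted p = 0.996) and 4 clones were tested, nor in N. sylvestris at 15 days, where 2 FLS clones were.

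Among 518 clones with a single symbol and all 9 group means, LOC102577712 had the pattern most like SHKA (r = 0.958 over the means). Its mean ratios were 1.73 and 1.51 in MM at 15 days and 1 day, 0.89 and 0.86 in Hicks, 0.67 and 0.09 in N. sylvestris, -0.25 and -0.05 in potato, and 0.18 for WT/α-PHYB. Its WT/α-PHYB mean differs in sign from that of SHKA (-0.20). LOC102577682 (0.928), LOC102593050 (0.906), LOC102577675 (0.895) and DHAR2, a dehydroascorbate reductase gene (0.890), came next, with MM means at 15 days of 0.29, 0.71, 0.21 and 0.88.

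For PPO clone 137880 the closest were LOC102580417 (0.949), LOC102577639 (0.913), LOC102588091 (0.905), DHAR2 (0.901, another clone) and LOC102577675 (0.893). LOC102577639, LOC102577675, LOC102580417, LOC102588091 and LOC102584826 (0.944 to 0.901) came closest to clone 150205. The N. sylvestris means enter these correlations in the direction taken here. The points of each correlation share array design and dye order within a plant, and 9 means are few for such a ranking.

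**Figure D5:**
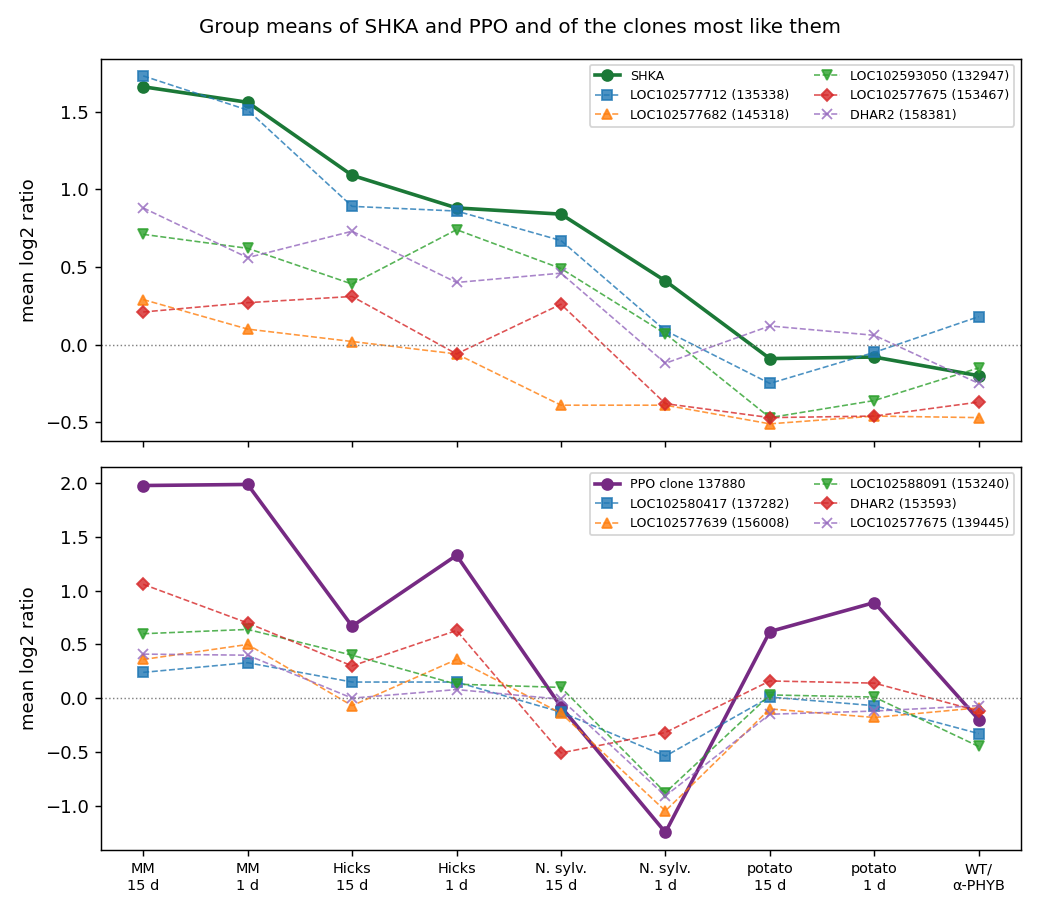
Mean log2 ratios (vertical axis) in the 9 groups of SHKA (upper panel) and PPO clone 137880 (lower panel), each with the 5 clones of highest Pearson correlation to it; spot numbers stand in parentheses, and lines join groups only to guide the eye. SHKA and LOC102577712 run together from 1.66 and 1.73 in MM at 15 days to -0.09 and -0.25 in potato at 15 days, and PPO clone 137880 has a mean of -1.25 in N. sylvestris at 1 day, or 1.25 with the direction of the sample titles.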

How the data were processed

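Deposited values were log2 ratios of 28 arrays of 2 colours, which the authors' array service had LOWESS-normalized; they are stored to the third decimal without intensities, and limma is named in the submitters' processing notes. The version of the normalization software is not given in the sources used here. Spots of a clone were paired by their distance of 844 or 1859 positions (15360 pairs, which contain all 905 pairs the annotation shows) and averaged; their correlation per array was 0.714 to 0.947. The array with exchanged dyes correlated at 0.784 with its partner as deposited and was averaged with it, giving 27 replicate ratios. Array medians lay between -0.037 and 0.07. N. sylvestris ratios were turned to LD/SD.

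Means were tested against 0, and differences between groups, with moderated linear models (limma 3.58.1 in R 4.3.3) over all clones with a value in every replicate, each comparison on its own arrays. The thresholds (p 0.05, adjusted p 0.1) follow the study's methods, but use limma's p and the Benjamini-Hochberg adjustment where the study had a t-test and q-values. On simulated replicates 200 changed clones (1.5 log2 units) were recovered in 188 cases for Hicks at 1 day and in 163 at 15 days. For Hicks over both days 198 were recovered, and for the MM day difference 120. The simulated arrays were independent, so these last 2 counts do not carry over to arrays that may be paired. Recovery also required an estimate of at least 1 in size, which a pass here does not. Recovery at smaller sizes, such as the tested Hicks means at 15 days and 1 day (0.67 to 1.33), was not tested. The number of arrays limits the precision. Same-numbered arrays of the 2 days deviated together in potato (r 0.14 to 0.46), MM (0.514 to 0.753) and N. sylvestris (0.604 to 0.856). In Hicks (-0.069 to 0.32) they did so less evenly. In each plant the titles of both days end in the same replicate numbers after the control. Same-numbered arrays may therefore share a control and form pairs, which the titles do not state. Day differences are given without the pairs as a block unless stated. The named genes are both members, every clone of the pathway list, and the 5 clones of a single symbol closest to each member over the group means. Of 1810 annotated probes, 1630 had 1 symbol and 180 several. Members and lists were chosen with earlier results of these data known.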

Additional observations from a re-analysis of the deposited data

Results flagged for a closer look

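PPO clone 137880 had LD/SD ratios of opposite sign in N. sylvestris and Hicks after 1 day, with 2 of 2 values below 0 in N. sylvestris and 3 of 3 above 0 in Hicks (difference -2.58, adjusted p = 0.0209 by limma with 2 values accepted). The N. sylvestris mean alone did not pass (adjusted p = 0.726), and as N. sylvestris was moved to LD and Hicks to SD, in the direction taken here both signs stand for lower RNA in the transferred plants. PPO clone 150205 had the same signs, with a difference of -2.34 that was not tested, since N. sylvestris had 1 value. SHKA in N. sylvestris had 1 value, -0.14 in replicate 1 at 1 day, far from the other 4, which lay between 0.74 and 0.97 (gap over range 0.795). The limit behind this marks about 1 in 20 groups by chance. Spots disagreed at 1 day: the -0.14 averaged -0.39 and 0.1, and the 0.97 of replicate 3 averaged 0.38 and 1.55.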

How the results depend on the processing

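The limits were 3 arrays a group, missing values in N. sylvestris, and a dye effect measured in 1 replicate only. Outside the settings that leave out a replicate, 206 tested values kept direction and side of the threshold, 122 values given without a test moved by less than their SD, 9 reversed, 15 lost and 6 gained a pass, and 1 moved by more than its SD. Part of the 206 could not change. The stricter limit of 0.05 cannot turn a fail into a pass, and the t-test and shared-spread settings keep the estimate. The SHKA ratio of 1.09 in Hicks at 15 days passed with a spread shared over all groups, and as 1.06 with scaled arrays; the 0.84 in N. sylvestris at 15 days passed with the shared spread, as 0.94 with scaled arrays, and as 0.84 with 2 values accepted. At 1 day in Hicks, 0.88 (SHKA), 1.33 (PPO clone 137880) and 0.91 (clone 150205) did not pass by the t-test with q-values. They did not with Benjamini-Hochberg adjustment of that t-test either. Nor did 0.88 pass at an adjusted p of 0.05, or 1.33 and 0.91 with the shared spread. Over both days 0.99 and 1.00 passed by the t-test with q-values (q = 0.0893 and 0.0972) but not with Benjamini-Hochberg adjustment. Clone 137880 over both days did not pass with the shared spread (1.00) or the dye term subtracted (0.51). PPO reversed in N. sylvestris at 15 days with scaled arrays (0.15) or the dye term (0.41), clone 150205 in WT/α-PHYB on the second spot (-0.03) or with the dye term (-0.21), and its potato day difference on the first spot (-0.23). The MM day difference reversed to 0.01 with centred arrays and 0.10 on the first spot for clone 137880, and to -0.04 on the second spot for SHKA. N. sylvestris minus Hicks in clone 137880 was 0.22 at 15 days with the dye term and -1.60 at 1 day; with the titles' direction, chosen after seeing the data, it was -0.08 at 1 day, and SHKA passed at -1.94 at 15 days. MM at 15 days moved to 1.49 (clone 137880) with the dye term. The cause was not tested.

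Leaving out 1 replicate gave 0.75 to 1.28 (SHKA) and 0.19 to 1.06 (clone 137880) in Hicks at 15 days, 0.40 to 1.15, 1.18 to 1.57 and 0.80 to 1.00 (clone 150205) at 1 day, and 0.58 to 1.22 and 0.71 to 1.32 over both days. In N. sylvestris at 15 days it gave 0.79 to 0.90, -0.34 to 0.36 and -0.01 to 0.42, and in WT/α-PHYB -0.23 to -0.15, -0.77 to 0.66 and -0.40 to 0.63. Day differences were -0.14 to 0.14, -0.81 to 0.32 and -0.57 to 1.05 in potato, -0.36 to 0.43 and -1.06 to 1.16 in MM, and 0.14 to 0.35 and -1.04 to -0.41 in Hicks. MM means were 1.55 to 1.83, 1.80 to 2.11 and 0.90 to 1.53 at 15 days, and 1.12 to 1.96 (SHKA) and 0.94 to 2.86 (clone 137880) at 1 day. N. sylvestris minus Hicks at 15 days was -0.44 to 0.09 and -1.14 to -0.28.

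With the replicate number as a block, no member's call changed in the day differences of potato, MM and Hicks or over both days in Hicks, and PPO clone 137880 passed in the N. sylvestris day difference (0.92 fixed, 0.97 random; added after seeing the data); in Hicks over both days SHKA stayed at 0.99 (adjusted p = 0.00487 with a fixed block, 0.0152 with a random one) and clone 137880 at 1.00 (0.0177 and 0.0156). In Hicks, 384 clones passed over both days without the block, 321 with a fixed and 642 with a random block, and 0, 84 and 0 for the day difference; N. sylvestris day differences gave 0, 800 and 765. Passing clones across settings ranged from 3 to 1134 in Hicks at 1 day (1115 as reported), 0 to 330 at 15 days (12) and 157 to 676 over both days (384), 0 to 1054 in N. sylvestris at 15 days (130), and 0 to 3096 in WT/α-PHYB (1182).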
